A study of Canis lupus familiaris with 17 samples.

Results

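Metallothioneins were examined in circulating leukocytes through 4 genes named by symbol among the 20257 genes of the count matrices, and each symbol was present once in the matrix of every dog. The genes were MT1E (ENSCAFG00000009110) and MT2A (ENSCAFG00000023759), which encode metallothioneins, MTF1 (ENSCAFG00000003247), which encodes the metal-responsive transcription factor 1, and SLC30A1 (ENSCAFG00000031999), which encodes the zinc exporter ZnT1. They were chosen by symbol with earlier results of these data in view, namely their levels by cell class and by dog, so their levels by cell class are given as a description with no test. Leukocytes were purified on a density gradient from the blood of 7 clinically healthy dogs and 10 dogs with spontaneous osteosarcoma (OS), a malignant bone tumor. All 17 dogs were client-owned, of several breeds and of both sexes, and the OS dogs carried a primary tumor and had received no treatment. The labels give every dog the genotype Wt and the cell type Immune. The healthy dogs were middle-aged, while the OS dogs spanned a wider range of ages with several older than every healthy dog, so the groups are not matched on age. Each dog gave 1 single-cell library, and a library was the unit of replication.

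Metallothioneins are small, cysteine-rich cytosolic proteins that bind zinc and copper and also take up cadmium and reactive oxygen species. When free zinc rises, MTF1 enters the nucleus, binds metal response elements and induces transcription of metallothionein genes and of SLC30A1, whose product moves zinc out of the cytosol. Glucocorticoids and inflammatory cytokines are also known inducers of metallothionein genes in myeloid cells.

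The libraries held 93013 cell barcodes, with 3650 to 7748 in the healthy dogs and 1332 to 7520 in the OS dogs. The median number of unique molecular identifiers (UMIs, counted transcripts) per cell that passed the filters was 3674.5 to 6694 and 4169.5 to 6718, respectively. After filtering, 80407 cells were kept, of which 13059 were monocytes, 50379 were lymphocytes and 687 met a gate for cells resembling monocytic myeloid-derived suppressor cells (M-MDSCs). The gate required at least 5 UMIs of S100A12, at least 2 of IL18, at least 1 each of CD4 and DLA-DRA, and 0 of CD3E. A total of 1124 barcodes occurred in more than 1 library, and the largest overlap between 2 libraries was 22. Levels are given as CPM, the counts of a gene scaled to a library of 1e6 UMIs, over the summed cells of a class in a dog, and since the assay tags transcript ends, levels of different genes are not ranked against each other.

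The class labels were compared with their markers. In the gated cells all 8 M-MDSC markers, none of which the gate used, were higher than in monocytes, with a summed level of 4740 against 728 CPM. The study lists these 8 genes, beside IL18 and S100A12 of the gate, for the M-MDSCs it defined in these same data. Their higher level is thus a description and not independent support for the label. Only 3 of the 12 monocyte markers were higher in the gated cells than in monocytes. These 12 markers summed to 25546 CPM in the gated cells and to 31232 CPM in monocytes, of which LYZ gave 16142 and 21376 CPM. All 9 neutrophil markers, including S100A12 of the gate, were also higher in the gated cells than in monocytes, with a summed level of 18475 against 5163 CPM, and 64361 CPM in neutrophils. By cluster, 465 of the gated cells lay in the cluster led by M-MDSC markers, 130 in the neutrophil cluster and 88 in the monocyte clusters. The gated cells thus came from several clusters, and the values of both metallothioneins in them are also given by cluster.

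Libraries also differed in their monocytes. In 5 libraries (H1, H2, OS1, OS2 and OS3), 92.3 to 98.0% of the cells of monocyte clusters 1 and 12 lay in cluster 12, compared with 0.12 to 12.1% in the other 12 libraries. Cluster 12 was led by CCL3, SERPINB2, CXCL8 and IL1A, and monocyte CXCL8, a neutrophil chemoattractant, was 2808 to 9751 CPM in those 5 libraries and 16.7 to 1979 CPM in the other 12. Results that rest on these libraries are given with and without them.

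MT2A, the metallothionein with the larger number of UMIs in monocytes (51294), was higher in monocytes than in lymphocytes. Monocyte MT2A ranged from 47.1 to 2114 CPM over the 17 dogs with a median of 154 CPM, and lymphocyte MT2A from 3.11 to 50.1 CPM with a median of 11.02 CPM. The difference had the same sign in 17 of 17 dogs, with a mean of 3.88 ± 1.01 on the log2(CPM + 1) scale (SD over dogs). Of 16061 genes compared, 14.5% were higher in monocytes than in lymphocytes in every dog. MT2A was also among the 10 leading genes of monocyte cluster 1, although it was left out of the genes used to form and name clusters. That ranking pooled the cells of all dogs, and H6 alone gave 22531 of the 51294 monocyte UMIs of MT2A. Whether MT2A led the cluster without H6 was not computed. When monocytes and lymphocytes were instead taken by counts of single marker genes in each cell, the difference was 4.04.

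In the gated M-MDSC-like cells MT2A was low again, with a range of 0 to 343 CPM and a median of 8.84 CPM. It was below the monocytes of the same dog in 17 of 17 dogs, which 4.39% of 14061 genes were, and the mean difference was -4.03 ± 2.38 on the log2(CPM + 1) scale. Only 183 MT2A UMIs stood behind the gated values, and 5 dogs had none. A count of 0 allows up to 8.90 to 44.7 CPM at the depth of these 5 dogs. The upper bound of the exact 95% Poisson interval, which covers counting error only, was below the monocyte level in 16 of 17 dogs, the exception being OS3 with 10 gated cells. Across the gated cells MT2A was 101 CPM (95% interval 81.2 to 124) in those of the monocyte clusters and 15.3 CPM (11.2 to 20.3) in those of the M-MDSC marker cluster. In the gated cells of the neutrophil cluster no MT2A UMI was found among 273984, with an upper bound of 13.5 CPM. Of the 47 MT2A UMIs in the marker cluster, 26 came from H6 and OS8. At the edge of the gate, MT2A was 50.8 CPM in the 23 gated cells with exactly 5 S100A12 UMIs and 12.9 CPM in the 19 cells that met every other criterion with 4. Likewise it was 51.1 CPM in the 164 gated cells with exactly 2 IL18 UMIs and 84.1 CPM in the 280 cells that met every other criterion with 1. No intervals were computed for these edge values, and the S100A12 sets held few cells, so no step at the edge is read from them.

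MT1E was carried by fewer UMIs and separated the classes less. Monocyte MT1E was 2.87 to 371 CPM with a median of 23.8 CPM, and lymphocyte MT1E was 2.98 to 46.7 CPM with a median of 11 CPM. It was higher in monocytes in 13 of 17 dogs, with a mean difference of 0.98 ± 1.23 on the log2(CPM + 1) scale. This mean was smaller than its SD over dogs, and 4 dogs went the other way. In the gated cells MT1E had no UMI in 11 dogs and reached 132 CPM in H6. It was below monocytes in 16 of 17 dogs, as 9.47% of genes were in all dogs or all but 1, but the interval of the gated cells excluded the monocyte level in only 10 dogs. By cluster, MT1E was 18.8 CPM (10.98 to 30.2) in the gated cells of the monocyte clusters, an interval that held the monocyte median, and 3.25 CPM (1.56 to 5.98) in those of the M-MDSC marker cluster, and no MT1E UMI was found in those of the neutrophil cluster. H6 and OS8 gave 10 of the 17 UMIs in the former and 7 of the 10 in the latter.

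**Figure D1:**
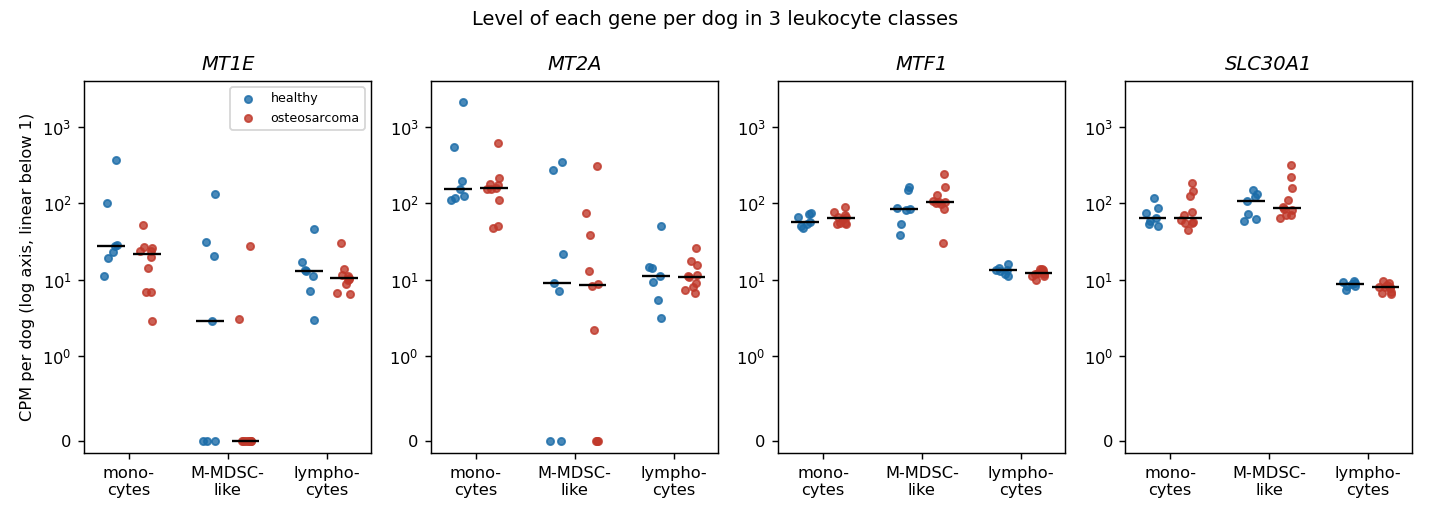
Level of MT1E, MT2A, MTF1 and SLC30A1 per dog, in CPM on a log axis that is linear below 1, in monocytes, gated M-MDSC-like cells and lymphocytes. Each point is 1 dog (blue healthy, red OS) and black lines are group medians. MT2A in monocytes, with a median of 154 CPM, lies above lymphocytes in all 17 dogs and H6 is highest at 2114 CPM, while the MTF1 and SLC30A1 medians of lymphocytes (12.6 and 8.26 CPM) lie below those of both myeloid classes.

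MTF1, the factor that senses zinc, had a narrow range in monocytes and in lymphocytes, and a wider one in the gated cells. It was 47.7 to 89.0 CPM in monocytes with a median of 62.2 CPM, and 9.75 to 15.8 CPM in lymphocytes with a median of 12.6 CPM. Monocytes were higher in 17 of 17 dogs by 2.22 ± 0.27 (log2, SD over dogs). Gated cells reached 29.8 to 239 CPM with a median of 102 CPM. They were higher than monocytes in 15 of 17 dogs, by 0.61 ± 0.76, a mean smaller than its SD over dogs. Of the genes compared, 8.08% were higher in the gated cells in at least 15 dogs. The M-MDSC marker cluster without the gated cells held 53.4 to 193 CPM with a median of 116 CPM, among dogs with at least 25 such cells. It was higher than monocytes in 15 of 15 of these dogs. Of the 2 dogs with fewer, it was higher in H6 (170.3 against 57.1 CPM) and lower in OS3 (77.7 against 89.0 CPM). The share of all genes higher in this cluster was not computed, so the count is not read as unusual. With each cell thinned to 1500 UMIs, 14.03% of gated cells and 9.58% of monocytes held an MTF1 UMI, compared with 1.87% of lymphocytes. At this thinned depth gated cells were higher in 12 of 16 dogs, with means of 97.1 and 68.1 CPM. The mean log2 difference was -0.23, with 0 CPM in the gated cells of OS3 and OS8 (10 and 22 cells). On the log2(CPM + 1) scale such a 0 weighs heavily, so the direction depended on the summary used. Levels also differed within the monocyte class. Monocyte cluster 14, of 1581 cells with a median depth of 4416 UMIs before gated cells were taken out, had MT2A and MT1E below the monocytes of the dog in 17 of 17 dogs, with medians of 19.9 and 0 CPM, and MTF1 above them in 16 of 17, with a median of 128 CPM. Of 14083 genes 9.46% were lower in every dog and 16.5% higher in all dogs or all but 1. Its MT2A was above the gated cells in 10 dogs and below them in 7, and its MTF1 above them in 8 and below in 9, so low MT2A beside higher MTF1 was not particular to the gated cells.

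SLC30A1, the zinc exporter, was also higher in monocytes and gated cells than in lymphocytes. It was 44.9 to 187 CPM in monocytes with a median of 63.5 CPM, 59.3 to 315 CPM in the gated cells with a median of 89.5 CPM and 6.39 to 9.58 CPM in lymphocytes with a median of 8.26 CPM. Monocytes exceeded lymphocytes in 17 of 17 dogs by 3.05 ± 0.59 (log2). Gated cells exceeded monocytes in 15 of 17 dogs by 0.46 ± 0.52, a mean smaller than its SD over dogs. With cells thinned to 1500 UMIs the gated to monocyte difference was 0.004, with gated cells higher in 10 of 16 dogs. The thinned gated cells of OS8 stood at 0 CPM. Monocyte SLC30A1 followed the libraries that stood apart. It was 85.9 to 187 CPM in those 5 libraries and 44.9 to 77.9 CPM in the other 12, with no overlap, and 4.19% of 13984 genes tested in monocytes were above all others in this way. Without the 5 libraries the monocyte to lymphocyte difference was 2.74. The other 3 genes overlapped between the 2 sets of libraries in monocytes.

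Resolved into 14 classes, MT1E and MT2A had the same class at the top. In plasmacytoid and pre-dendritic cells, measured in 12 dogs with at least 10 such cells, MT2A was 317 to 1372 CPM with a median of 433 CPM and MT1E was 82.6 to 525.7 CPM with a median of 121 CPM. MT1E was above monocytes in 12 of 12 dogs and MT2A in 10 of 12, while 13.1% and 24.1% of 13725 genes were higher in all 12 and in at least 10 dogs, respectively. The 5 libraries that stood apart held 1 to 5 of these cells each and gave no value. The class joined clusters 24 and 27, and the high levels lay in cluster 24, where MT1E was above the monocytes of the dog in 10 of 10 dogs with at least 10 such cells and MT2A in 9 of 10. In cluster 27 MT1E was above monocytes in 0 of 10 dogs and MT2A in 1 of 10, with medians of 17.01 and 68.2 CPM. The shares of all genes were not computed for clusters 24 and 27, so their counts are a description. After thinning to 1500 UMIs, 46.4% of plasmacytoid and pre-dendritic cells held an MT2A UMI, compared with 21.9% of monocytes, 17.2% of conventional dendritic cells, 2.11% of gated cells, 1.70% of lymphocytes and 0.36% of neutrophils. Before thinning the shares were 77.3%, 49.8%, 47.8%, 5.68%, 5.10% and 0.37%, with median depths of 14613, 11808, 15256, 6010, 5232 and 1716 UMIs. Cells were pooled over dogs. Without H6 the thinned shares were 41.9%, 17.4%, 14.1%, 1.56%, 1.49% and 0.29% in the same order. The neutrophil share is given as a rough reference for free RNA, which was not measured. Neutrophils had the lowest median depth of these classes, and free RNA can form a larger part of so few UMIs. The neutrophil share differed between dogs. After thinning it was 0 in 9 of 17 dogs, but 1.84% in OS8 and 2.34% in H6, the 2 dogs with the most MT2A in monocytes. The lymphocyte share was above that of the neutrophils in 17 of 17 dogs, although in OS8 by little (2.16%), and the CD4 T cell share was not in OS7, OS8 and OS9. The gated share was 0 in 10 of 16 dogs and above the neutrophils in the other 6. At this thinned depth MT2A in gated cells was thus not told apart from the neutrophils in most dogs. Over all UMIs, gated MT2A was above the neutrophils in 12 of 17 dogs and below them in 2. The medians were 8.84 and 0.93 CPM, from 183 and 20 UMIs.

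MT2A in conventional dendritic cells, with a median of 114 CPM, was below monocytes in 15 of 16 dogs. The mean difference was -0.92 ± 0.69 on the log2 scale, and 12.7% of genes were lower in all dogs or all but 1. Within the lymphoid classes, plasma cells and CD8 T and NK cells had the highest levels of both metallothioneins. Plasma cells held a median of 60.2 CPM of MT1E and 82.1 CPM of MT2A, against 2.51 and 6.25 CPM in the B cells of the same dogs, and were higher for both genes in 14 of 14 dogs. In the same comparison 6.71% of genes were higher in every dog. CD8 T and NK cells held a median of 24.8 CPM of MT1E and 19.7 CPM of MT2A, against 3.81 and 4.49 CPM in CD4 T cells, and were higher for both genes in 17 of 17 dogs, as were 9.78% of 14880 genes. The mean log2 differences were 2.21 ± 0.76 for MT1E and 1.85 ± 0.61 for MT2A. In the CD8 T and NK class, 94.8% of cluster 15 came from OS9.

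MTF1 and SLC30A1 were arranged differently. Plasmacytoid and pre-dendritic cells were below monocytes for both genes in 12 of 12 dogs, as were 13.5% of genes, with medians of 9.50 CPM for MTF1 and 6.55 CPM for SLC30A1. Neutrophils separated the 2 genes, with a median of 48.2 CPM for MTF1 and 6.51 CPM for SLC30A1, while their MT2A median was 0.93 CPM. Platelets, in contrast, had the highest median of SLC30A1, 98.7 CPM, and a median of 0 for the other 3 genes. The M-MDSC marker cluster and the gated cells followed at 95.05 and 89.5 CPM, and these 3 ranges overlapped.

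**Figure D2:**
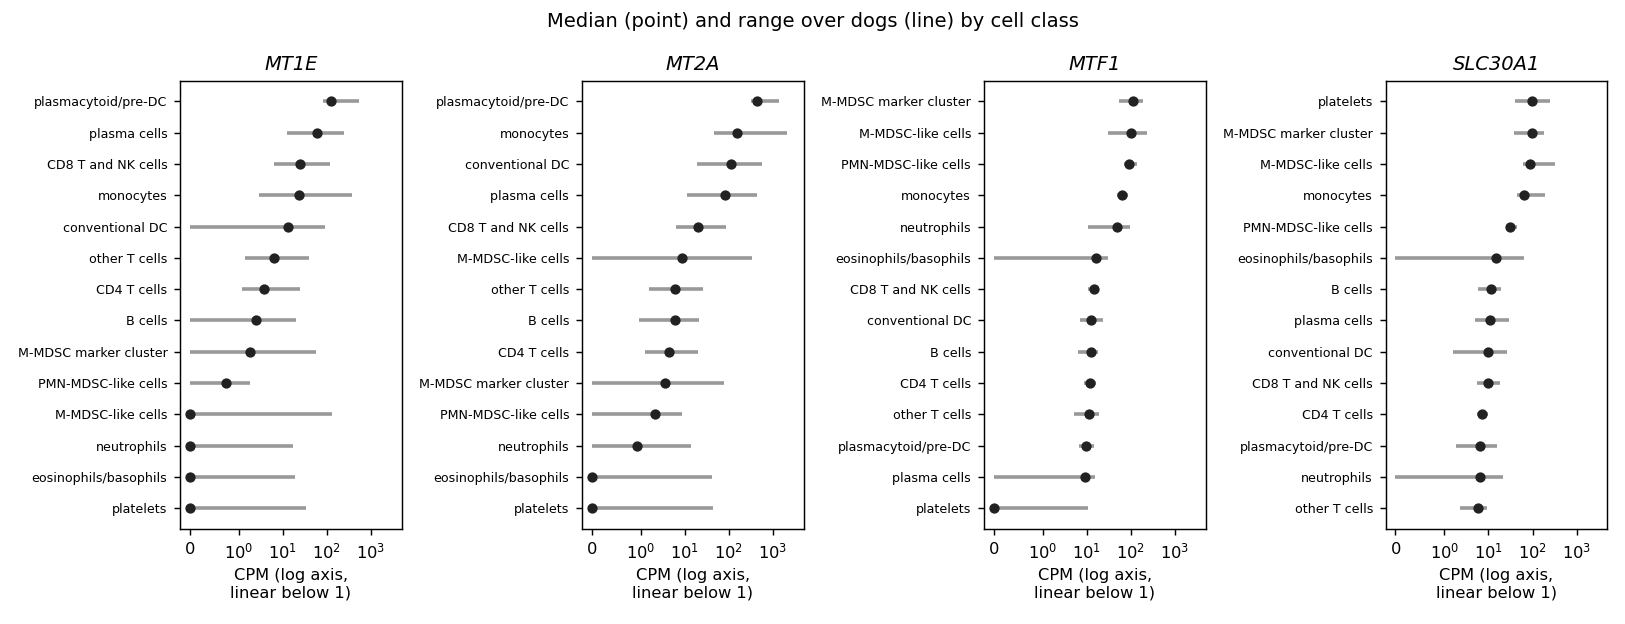
Median (point) and range over dogs (grey line) of each gene in 14 classes, ordered by the median, in CPM on a log axis that is linear below 1. MT1E and MT2A peak in plasmacytoid and pre-dendritic cells (121 and 433 CPM, which cluster 24 of that class carried) where MTF1 and SLC30A1 are near their lowest (9.50 and 6.55 CPM), and most neighbouring classes overlap in range.

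The share of MT1E in the UMIs of MT1E and MT2A together also differed by class. It averaged 12.3 ± 4.87% (SD, 17 dogs) in monocytes and 50.2 ± 10.4% in lymphocytes, and was lower in monocytes in 17 of 17 dogs. In CD8 T and NK cells the share was 55.4 ± 12.0% and in plasmacytoid and pre-dendritic cells 22.7 ± 6.16%. Reads of 2 similar paralogs can be split unevenly by the alignment, and how reads shared by both were counted is not given in the sources used here, so the shares are uncertain in absolute size.

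In monocytes, CD4 T cells and CD8 T and NK cells, largely the same dogs held the extreme shares. This pattern was chosen after its values were seen, and it is given for these classes only. OS2 and OS8 had the lowest shares in monocytes, at 2.56% (95% Wilson interval 1.63 to 4.01) and 3.78% (3.36 to 4.26). The remaining 15 dogs ranged from 8.19 to 22.6%. The same 2 dogs were lowest in CD4 T cells, at 27.04 and 23.0%, and in CD8 T and NK cells, at 31.2 and 29.7%, where the others ranged from 33.3 to 75.7% and from 46.9 to 75.0%. In OS8, 1.35% of CD4 T cells and 1.84% of neutrophils held an MT2A UMI after thinning. Its CD4 T cell value was thus not told apart from the neutrophil level, a rough reference for free RNA. OS4 had the highest share in monocytes at 22.6% (19.8 to 25.7) and in CD4 T cells at 75.7%, and was second in CD8 T and NK cells at 71.9%. These intervals cover counting error only, and the dogs were of different breeds.

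**Figure D3:**
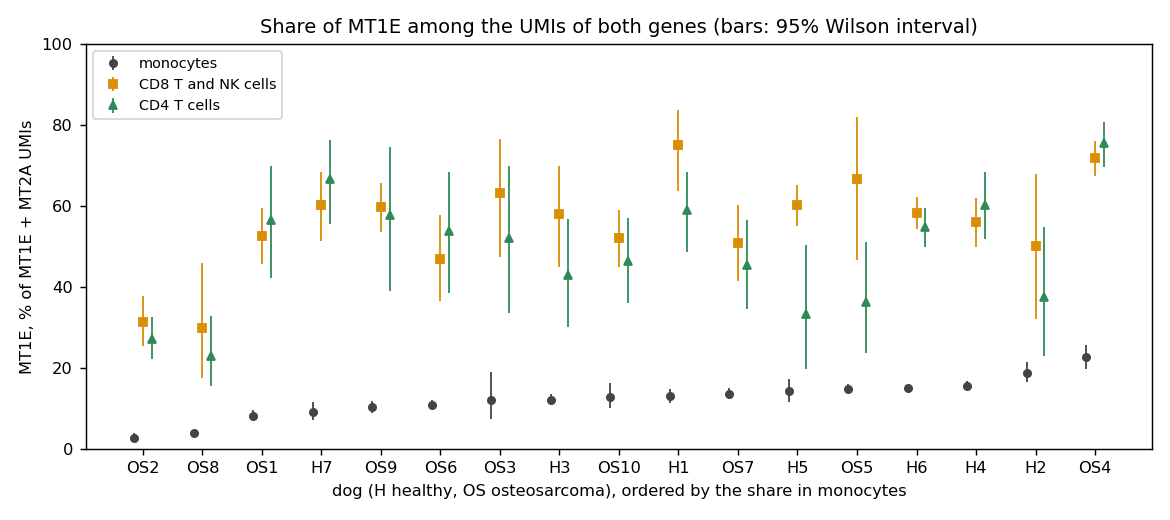
Share of MT1E in the UMIs of MT1E and MT2A, in percent, per dog in monocytes (circles), CD8 T and NK cells (squares) and CD4 T cells (triangles), with 95% Wilson intervals and dogs ordered by the monocyte share. OS2 and OS8 are lowest in all 3 classes (2.56 and 3.78% in monocytes) and OS4 is highest in monocytes (22.6%). The CD4 T cell value of OS8 was not told apart from the level in its neutrophils.

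Across dogs, H6 had the highest metallothionein levels in monocytes. Its monocytes held 2114 CPM of MT2A and 371 CPM of MT1E, compared with at most 608 CPM (OS8) and 101 CPM (H4) in the other dogs, which is 13.7-fold and 15.9-fold above their medians. Only 6.49% of H6 monocytes lacked an MT2A UMI and their median was 21 UMIs, whereas 20.4 to 79.3% lacked one in the other 16 dogs. Of 7033 genes with a mean of at least 10 CPM in monocytes, MT1E and MT2A were the only 2 that were over 3-fold above the next dog in H6. H7 and OS1 also had 2 such genes each and OS3 and OS8 had 1 each, so a count of this size was not particular to H6. H6 also had the highest MT1E of all dogs in lymphocytes (46.7 CPM), CD4 T cells (24.8 CPM), CD8 T and NK cells (118 CPM) and plasmacytoid and pre-dendritic cells (525.7 CPM), and the highest MT2A in each of these, but ranked second for MT1E in plasma cells and for MT2A in B cells. The neutrophils of H6 held 13.9 CPM of MT2A, from 4 UMIs, and no MT1E UMI. Its MT2A in CD4 T cells (20.4 CPM) was close to this, and after thinning the levels were 17.6 CPM in CD4 T cells and 15.6 CPM in neutrophils. The CD4 T cell level of H6 was thus not told apart from that of its neutrophils, a rough reference for free RNA. In monocytes H6 was not high for the regulator or the exporter. It ranked 10 of 17 for MTF1 at 57.1 CPM and 16 of 17 for SLC30A1 at 51.0 CPM. Its SLC30A1 in CD4 T cells was the highest of all dogs at 9.77 CPM, against at most 9.30 CPM in the others. After thinning that value was 8.60 CPM, below 11.4 CPM in H7, so this rank did not hold. In monocytes H6 was also 17 of 17 for HSPA8, ZFP36 and SOD2, at 376, 136 and 222 CPM. H6 was not one of the 5 libraries that stood apart, and only 0.12% of its cells of clusters 1 and 12 lay in cluster 12, the lowest share of the 17 libraries.

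MT1E and MT2A varied together over dogs in monocytes. On the log2(CPM + 1) scale Pearson's r was 0.85 and Spearman's rho 0.77 over 17 dogs, with permutation p adjusted over the 4 relations examined of 0.00028 and 0.0022. Since the genes were chosen with their levels by dog known, these p and those of the other 3 relations describe these dogs and are not independent evidence of a relation. Without H6 and OS2, the dogs farthest from the median, r was 0.77. Within the healthy dogs r was 0.98 and within the OS dogs 0.61, the latter with a permutation p of 0.0598. In lymphocytes r was 0.73 and rho 0.57 (adjusted permutation p of 0.0033 and 0.04), but r was 0.55 without H6 and 0.29 without H6 and H2, so the relation rested on those dogs. Over the 7 healthy dogs, H6 and H2 among them, r was 0.98 and rho 0.96, and over the 10 OS dogs r was 0.12, a difference that was not tested.

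Levels in monocytes and lymphocytes of the same dog were less closely related. For MT1E r was 0.56 and rho 0.30 (adjusted permutation p of 0.026 and 0.24), and for MT2A r was 0.63 and rho 0.30 (adjusted permutation p of 0.013 and 0.24). Without the 2 farthest dogs r was 0.11 for MT1E (H6 and OS2 left out) and 0.062 for MT2A (H6 and OS8 left out). Both relations rested on those dogs. In the 12 libraries that did not stand apart, r was 0.64 and 0.70, with H6 among them.

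**Figure D4:**
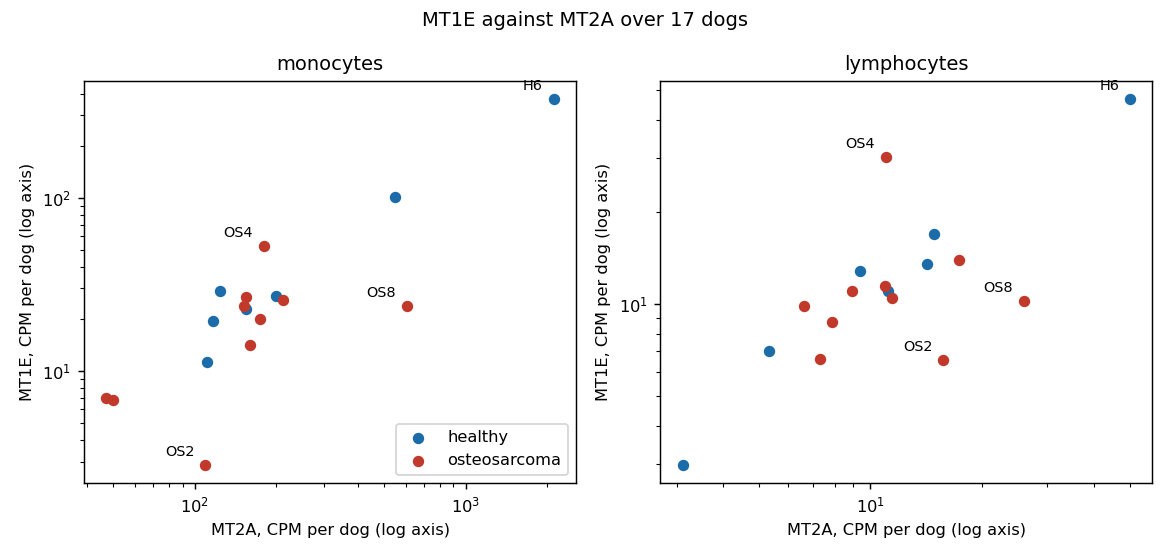
MT1E against MT2A per dog in monocytes (left) and lymphocytes (right), in CPM on log axes, blue healthy and red OS. H6 lies at the upper right in both (2114 and 371 CPM in monocytes), and OS2 and OS8 lie below the other dogs at a given MT2A level.

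The genes whose monocyte level was most like that of each metallothionein over the 17 dogs were ranked by Spearman's rho among the 7033 genes, as a description with no p. For MT1E these were TFDP2, OGA, DCLRE1C, SMN and TARS1, with rho of 0.87 to 0.83, and MT2A was 20th at 0.77. For MT2A they were ENSCAFG00000009113, which has no symbol in the files, with rho of 0.89, then NSMCE1, CORO1A, ENSCAFG00000046514 and AIG1 with rho of 0.83 to 0.77, and MT1E was 6th. MTF1 had a rho of -0.06 with MT1E and -0.15 with MT2A, and SLC30A1 -0.49 and -0.39. The 5 libraries that stood apart had the highest monocyte SLC30A1. Their monocyte medians were 14.2 CPM of MT1E and 124 CPM of MT2A, against 24.9 and 176 CPM in the other 12, with overlap. The rho without these libraries was not computed, so no inverse relation is read from the values of SLC30A1.

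To ask whether the genes differed in disease, OS was compared with healthy dogs by edgeR's quasi-likelihood test on the summed counts of each class, with a call at an adjusted p under 0.01 and a log2 fold change over 0.58 in either direction. None of the 4 genes was called in any of 8 classes, and neither was any other gene (0% of 13984 tested in monocytes, 15574 in lymphocytes and 8963 in gated cells). At an unadjusted p under 0.05 edgeR counted 805 genes in monocytes (5.76%), 787 in lymphocytes (5.05%) and 403 in gated cells (4.5%). The counts were 937 of 16305 in all cells (5.75%), 483 in CD4 T cells (3.37%), 538 in CD8 T and NK cells (4.13%), 628 in B cells (4.99%) and 451 in neutrophils (4.54%). DESeq2 called 2 genes in monocytes, MSANTD3-TMEFF1 and ENSCAFG00000023887, 2 in lymphocytes, BCAR3 and SLCO5A1, and 3 in all cells, BCAR3, MSANTD3-TMEFF1 and SLCO5A1, none of them a metallothionein gene, and 0 in the other 5 classes.

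Monocyte MT1E was 11.3, 27.2 and 371 CPM (lowest, median and highest) in healthy dogs and 2.87, 21.9 and 52.5 CPM in OS dogs. The groups overlapped, with 3 OS dogs below every healthy dog. The log2 fold change was -1.98 ± 0.63 (SE), with a 95% interval of -3.31 to -0.66 for this gene alone and an adjusted edgeR p of 0.80. Without H6 it was -0.73 (-1.76 to 0.30). Monocyte MT2A was 111, 154 and 2114 CPM in healthy dogs and 47.1, 157 and 608 CPM in OS dogs, so the medians were nearly equal. Its log2 fold change was -1.35 ± 0.60 (adjusted edgeR p = 0.82) and without H6 -0.14 (-1.11 to 0.83). Without the 5 libraries that stood apart the values were -2.06 for MT1E and -1.49 for MT2A, so H6, and not those libraries, moved them by over 1.5 times.

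Monocyte MTF1 had medians of 57.1 CPM in healthy and 63.8 CPM in OS dogs, with a log2 fold change of 0.16 (-0.08 to 0.39, adjusted edgeR p = 0.89). Monocyte SLC30A1 had medians of 63.5 and 65.1 CPM and a log2 fold change of 0.29 (-0.25 to 0.83, adjusted edgeR p = 0.90), which was 0.03 (-0.23 to 0.30) without the 5 libraries that stood apart.

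In lymphocytes the medians of healthy and OS dogs were 12.8 and 10.4 CPM for MT1E and 11.1 and 10.97 CPM for MT2A. The log2 fold changes were -0.39 (-1.30 to 0.53) and -0.31 (-1.25 to 0.62), and both turned positive without H6, to 0.22 and 0.41. For MTF1 and SLC30A1 they were -0.06 (-0.25 to 0.14) and -0.09 (-0.33 to 0.15). In B cells MT1E was 0.66, 4.05 and 20.1 CPM in healthy dogs and 0, 0.72 and 5.59 CPM in OS dogs, a log2 fold change of -2.15 ± 0.64 (adjusted edgeR p = 0.86) that was -1.66 without H6. It rested on 158 UMIs over all dogs.

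In the gated M-MDSC-like cells only 4 healthy and 7 OS dogs had at least 25 cells, and H6 was not among them. MTF1 and SLC30A1 had log2 fold changes of 0.27 (-0.22 to 0.76) and -0.28 (-0.92 to 0.36). The MT2A value of 2.63 ± 1.12 (adjusted edgeR p = 0.995) changed sign when all dogs with at least 10 cells were used, to -0.80 (-2.58 to 0.99). The MT1E value moved from -0.46 (-3.11 to 2.203) to -2.88 in the same way. MT2A in the gated cells reached its 3 highest values in H6 (343 CPM), OS8 (308 CPM) and H4 (271 CPM), and the fit with at least 25 cells held only OS8 of these. Without the 5 libraries that stood apart, H3 and H7 were the only healthy dogs with at least 25 gated cells, both with no MT2A UMI, so no fold change is given.

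**Figure D5:**
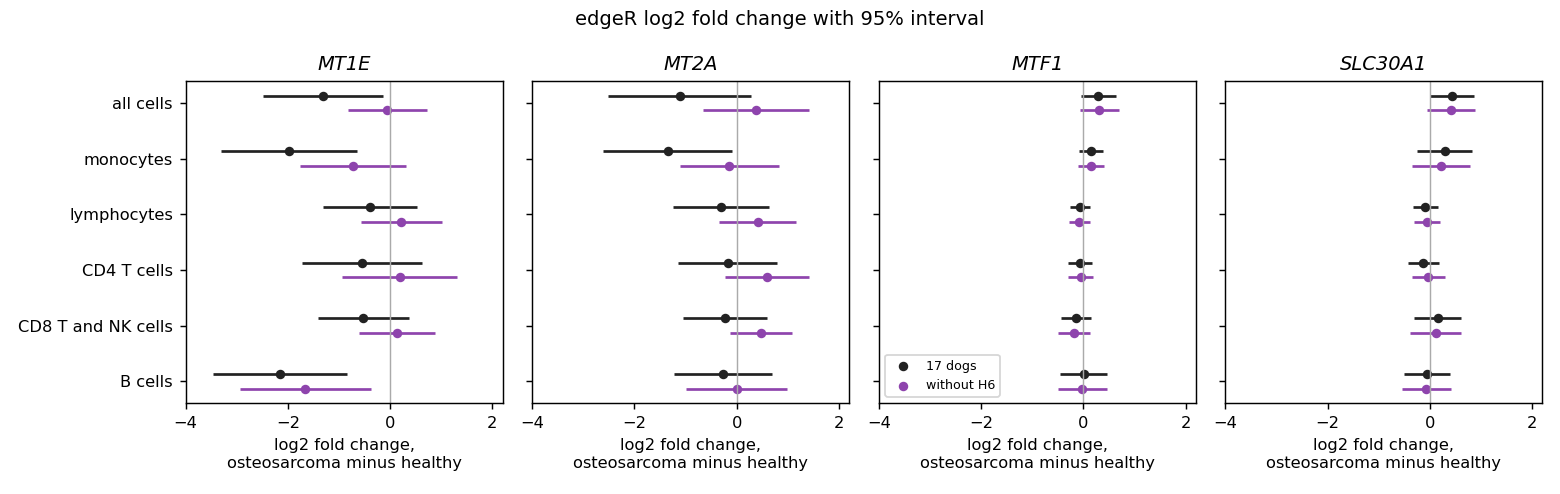
log2 fold change of each gene, OS minus healthy, from edgeR with its 95% interval, in all cells and 5 classes, for 17 dogs (black) and without H6 (purple). MT1E and MT2A in monocytes move from -1.98 and -1.35 to -0.73 and -0.14 without H6, while MTF1 and SLC30A1 lie near 0.

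Other genes of metal and stress handling were counted in 8 lists, and edgeR called 0 of their genes in OS against healthy monocytes, lymphocytes or gated cells, in either direction. At an unadjusted p under 0.05 in monocytes the lists held MT3 of the other metallothioneins, no zinc or copper gene, 2 of 13 iron genes, 1 of 12 oxidative stress genes, 2 of 14 glucocorticoid response genes and 3 of 10 heat shock genes, beside 5.76% of all genes tested. Over all genes the median log2 fold change in monocytes was 0.02. The list medians in monocytes were -1.27 for the other metallothioneins (MT3 and MT4, with monocyte medians of 1.01 and 0.078 CPM), -0.01 for 5 zinc exporters, -0.12 for 9 zinc importers, 0.05 for 11 copper genes, 0.12 for 13 iron genes, 0.06 for 12 oxidative stress genes, 0.54 for 14 glucocorticoid response genes and 0.21 for 10 heat shock genes. H6 was the highest dog for MT3 and MT4 (6.47 and 0.28 CPM), and their fold changes without H6 are not given.

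Many iron and oxidative stress genes were higher in monocytes than in lymphocytes. Of 13 iron genes 8 were so in every dog, beside 14.5% of all genes, among them FTH1 (ENSCAFG00000015901), the ferritin heavy chain, at 6835 ± 1481 against 945 ± 187 CPM (SD over dogs), and FTL, the light chain, at 2800 ± 848 against 636 ± 216 CPM. The files hold a second gene of the symbol FTH1, and reads of such copies can be split between them. Of 12 oxidative stress genes 8 were, among them SOD2, the mitochondrial superoxide dismutase, at 688 ± 446 against 76.7 ± 9.83 CPM. Monocyte SOD2 averaged 1226 CPM in the 5 libraries that stood apart and 464 CPM in the other 12. The gated cells differed from monocytes in a mixed way. FTH1, SOD2, SGK1 and ZFP36 were higher in the gated cells in 17 of 17 dogs, as were 3.26% of all genes, with 12286 ± 2629 CPM of FTH1 and 2915 ± 1077 CPM of SOD2. HMOX1, NCOA4, PRDX1, GPX1, HSPH1 and HSP90AB1 were lower in 17 of 17 dogs, as were MT2A and 4.39% of all genes. GPX1, a glutathione peroxidase, was 337 ± 106 CPM in gated cells and 734 ± 143 CPM in monocytes.

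Zinc transporters other than SLC30A1 varied in direction. Of 7 zinc exporters compared between monocytes and lymphocytes, 2 were higher and 1 lower in monocytes in every dog, and of 11 importers 0 were higher and 2 lower, beside 14.5% higher and 30.5% lower among all genes. SLC30A7, a Golgi zinc transporter, was 117 ± 18.5 CPM in monocytes and 143 ± 25 CPM in lymphocytes, and SLC39A7, which releases zinc from the endoplasmic reticulum, 53.0 ± 10.8 and 81.8 ± 12.1 CPM. Of 11 copper genes 4 were higher and 3 lower in monocytes in every dog, with the copper chaperone ATOX1 at 222 ± 50.4 against 78.3 ± 18.6 CPM. The glucocorticoid response gene FKBP5 varied from 64.7 to 1935 CPM in monocytes, highest in OS3, with H6 ranked 13 of 17. Of the 14 genes of this list, H6 was lowest or second lowest in 8 (TSC22D3, PER1, DUSP1, IL1R2, ZFP36, ERRFI1, SGK1 and DDIT4), as it was for 7.08% of the 13984 genes tested in monocytes. The same held for 5 of 10 heat shock genes, 3 of 9 zinc exporters, 2 of 12 oxidative stress genes, 1 of 13 iron genes and none of the genes of the other 3 lists. The part of this in the metallothionein levels of H6 was not tested.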

How the data were processed

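Single-cell 3′ RNA libraries of 17 dogs were examined, grouped as healthy (7) or osteosarcoma (10) by the disease state in the labels. The deposited UMI counts per gene and cell are raw counts made by the authors with Cell Ranger 7.0.0 on CanFam3.1, named in the submitters' processing notes beside Seurat. In the study's methods reads were aligned both with introns counted and with exons only. The setting behind the deposited counts, and how reads shared by paralogs were assigned, are not given in the sources used here. A library held 27811378 to 46295707 UMIs in the healthy dogs and 7740230 to 56510134 in the OS dogs.

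Cells with 200 to 4500 genes, 500 to 20000 UMIs and under 10% mitochondrial UMIs were kept, and putative doublets, the cells of highest Scrublet score at a rate that grew with the number of barcodes (1.05 to 6.20% of cells per library), were removed in scanpy 1.11.5. Cells were clustered (2000 variable genes, 30 principal components, resolution 1.0) and clusters named from marker lists. Gated cells were taken out of their cluster's class. Lymphocytes comprise T, NK, B and plasma cells. Classes rebuilt in this way can differ from the study's.

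Levels were sums per dog divided by the UMIs of the class, for classes with at least 25 cells in a dog (10 for rare classes). For shares of cells with a UMI, cells were thinned to 1500 UMIs, leaving out 98 healthy and 164 OS monocytes, 10 and 14 gated cells, and 211 and 273 lymphocytes. OS was compared with healthy by edgeR 4.0.16 (quasi-likelihood, TMM, at least 25 cells per dog and 10 counts per gene, R 4.3.3) with Benjamini-Hochberg adjustment. The standard error was the log2 fold change over the square root of F, or came from the weights of the fit for F under 0.01. On simulated counts with a dispersion of 0.1, the fit recovered 54% of 2-fold changes in monocytes, 55% in lymphocytes and 17% in gated cells. Of 4-fold changes it recovered 99, 100 and 88%, so a gene not called can still differ. The dispersion was a setting, the same for all genes. Monocyte MT1E and MT2A varied more between dogs, at 46.2 ± 86.6 and 307 ± 490 CPM (SD). These recovery rates therefore do not apply to the 2 metallothioneins. Permutation tests were two-sided with 100000 resamples, and exact where a group held under 10 dogs. Intervals and limits cover counting error only, and a count of 0 was taken to allow 3 counts.

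The genes, lists and tests were chosen with earlier results of these data known. Named genes were the 4 genes, the 5 genes most like each metallothionein in monocytes, and the 2 list genes highest in monocytes, and others were chosen after their values were seen. Alternatives were DESeq2 1.42.0, its size factors, other gene filters, cell minimums, gates and clusterings, doublets kept, a replicate block and each dog left out. Without the 5 libraries that stood apart, those libraries as a covariate, no upper limits on cells and no H6 were added after seeing the data. No genome of the build was used, so positions and sequences are not given.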

Additional observations from a re-analysis of the deposited data

Results flagged for a closer look

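In 56 groups of dogs and classes, a test of the most extreme dog against its group (Dixon, 95%) marked 20 values. Chance alone marks about 1 in 20 groups of normally distributed values. The test was run on CPM without a log, where high values stand out more, and all 20 marks were of a highest dog. The genes were also chosen with their levels by dog known, so these marks describe the dogs and are not independent evidence. H6 accounted for 11, each as the highest of the healthy dogs. Its MT1E was 371 CPM in monocytes (next healthy dog 101), 132 CPM in gated M-MDSC-like cells (30.9), 46.7 CPM in lymphocytes (16.9), 24.8 CPM in CD4 T cells (11.3), 118 CPM in CD8 T and NK cells (37.1) and 525.7 CPM in plasmacytoid and pre-dendritic cells (140). Its MT2A was 2114 CPM in monocytes (548), 50.1 CPM in lymphocytes (14.8), 20.4 CPM in CD4 T cells (5.64), 84.5 CPM in CD8 T and NK cells (24.6) and 1372 CPM in plasmacytoid and pre-dendritic cells (443).

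Among the OS dogs, OS4 was far above the others for MT1E, with 52.5 CPM in monocytes (next 26.8), 30.2 CPM in lymphocytes (13.9), 17.8 CPM in CD4 T cells (6.89) and 63.6 CPM in CD8 T and NK cells (29.9). OS8 was far above for MT2A in monocytes at 608 CPM (next 212) and in gated cells at 308 CPM (74.1), and for MT1E in gated cells at 27.97 CPM (3.09), the last from 4 UMIs. OS2 was far above for MT2A in CD8 T and NK cells at 39.5 CPM (24.8) and in B cells at 20.8 CPM (9.39). The classes of a dog share 1 library, so these values are not independent.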

How the results depend on the processing

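Under alternatives other than leaving out 1 dog, 291 values kept their direction and call, and the others are given here. DESeq2 called 3 genes in all cells, 2 in monocytes and 2 in lymphocytes, and edgeR with no gene filter called 2 in gated cells (FADS1 and ACVR2A), where edgeR otherwise called 0. Leaving out each dog in turn gave 0 calls in every class.

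In monocytes, leaving out a dog moved the log2 fold change to -2.24 to -0.73 for MT1E, -1.76 to -0.14 for MT2A, 0.11 to 0.20 for MTF1 and 0.14 to 0.48 for SLC30A1. In lymphocytes the ranges were -0.71 to 0.22 for MT1E and -0.50 to 0.41 for MT2A, positive only without H6. In gated cells they were 1.48 to 3.53 for MT2A, 0.18 to 0.43 for MTF1 and -0.52 to -0.04 for SLC30A1, and in B cells -2.62 to -1.66 for MT1E. In gated cells MT2A turned to -0.80 with at least 10 cells per dog and -1.46 with the looser gate, and SLC30A1 to 0.21 and 0.24. The cause was not tested.

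The 2 groups hold different dogs, and the replicate numbers were not found to pair them (4 of 7 correlations of deviations over 0.1, and 0 of 7 dogs correlated best with their own number). With a replicate block edgeR called 8 genes in neutrophils, none of the 4 genes, and SLC30A1 in gated cells turned to 0.013.

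Class differences with 1 dog left out were, for monocytes minus lymphocytes, 0.85 to 1.10 (MT1E), 3.79 to 4.04 (MT2A), 2.19 to 2.25 (MTF1) and 2.98 to 3.096 (SLC30A1). For gated cells minus monocytes they were -3.32 to -2.95, -4.22 to -3.80, 0.54 to 0.75 and 0.36 to 0.51 in the same order. For CD8 T and NK cells minus CD4 T cells they were 2.09 to 2.27, 1.77 to 1.90, 0.25 to 0.30 and 0.27 to 0.39. For plasmacytoid and pre-dendritic cells minus monocytes they were 2.04 to 2.37, 1.04 to 1.38, -2.57 to -2.47 and -3.18 to -2.95. Thinning turned MTF1 in gated cells minus monocytes from 0.61 to -0.23, with 0 CPM in the gated cells of OS3 and OS8. It moved MTF1 and SLC30A1 in plasmacytoid and pre-dendritic cells minus monocytes to -5.17 and -4.17, with 0 CPM in most dogs.

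Correlations lost their call as follows. Within OS dogs r was 0.61 (MT1E with MT2A in monocytes), 0.12 (the same in lymphocytes), 0.54 (MT1E between classes) and 0.39 (MT2A between classes), and within healthy dogs 0.60 for MT1E between classes. Between classes r was 0.23 (MT1E) and 0.33 (MT2A) without H6. Without the 2 farthest dogs r was 0.29 in lymphocytes, and 0.11 and 0.062 between classes.

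Depth limits the gated cells, with 31 MT1E and 183 MT2A UMIs in 687 cells, and the neutrophils, with 6 and 20 in 5103 cells.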

Other observations

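Of the other annotated metallothionein genes, MT4 held 13 UMIs in monocytes and none in either dendritic class, and MT3 was low outside dendritic cells. MT3 was 56.5 to 369 CPM in plasmacytoid and pre-dendritic cells with a median of 166 CPM over 12 dogs, and had a median of 7.27 CPM in conventional dendritic cells and 1.01 CPM in monocytes. ENSCAFG00000009113, which has no symbol in the files and ranked first in likeness to MT2A over monocytes, was abundant in T and NK cells but not in B cells. Its median was 3413 CPM in CD8 T and NK cells, 985 CPM in CD4 T cells, 181 CPM in B cells, 167 CPM in monocytes and 3549 CPM in plasmacytoid and pre-dendritic cells. These classes and both genes were chosen after their values were seen.

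The plasmacytoid and pre-dendritic class was formed by clusters 24 and 27, which differed in metallothionein level within the same dogs. Over 9 dogs MT2A was 893 ± 428 CPM (SD) in cluster 24 and 78.5 ± 37.1 CPM in cluster 27, and MT1E was 309 ± 194 and 22.8 ± 18.3 CPM. MT2A, MT1E and MT3 were higher in cluster 24 in 9 of 9 dogs, while MTF1 was in 4 of 9 and SLC30A1 in 3 of 9. The clusters were formed from the same cells and no share of all genes was computed, so this is a description with no test.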
